A study of Macaca fascicularis with 16 samples.

Results

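The ZNF genes are the genes whose symbol is ZNF followed by a number, most of which encode C2H2 zinc finger proteins. Their transcripts were followed in the endometrium of postmenopausal cynomolgus macaques. The platform annotation gave a single such symbol to 468 probe sets, which stand for 284 genes. Members were chosen by measured values: a probe set was kept if its mean level over the 16 arrays lay outside the lowest 40% of all probe sets, and each gene was followed through its brightest kept probe set. This left 252 ZNF genes among 10705 genes followed in all, while 32 ZNF genes had no kept probe set. The choice rests on the mean over all arrays and does not use the treatment arms.

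RNA of the endometrium of 16 females, 1 array per animal, was measured after 4 months in 4 arms of 4 animals. The control arm received placebo. The estradiol arm was given a low dose of micronized estradiol, 0.25 mg in each 1800 kcal eaten. The tamoxifen arm received tamoxifen, a selective estrogen receptor modulator, 20 mg in each 1800 kcal, and the combination arm received both agents at these doses. All animals were postmenopausal, and the arrays were made for rhesus macaque transcripts. Levels are given as log2(signal + 4.80), and changes as differences of mean levels on that log2 scale with the standard error from limma after the sign ±. A gene is said to have risen or fallen where limma's Benjamini-Hochberg adjusted p, over all 31659 probe sets tested, was under 0.05.

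C2H2 zinc fingers are short folds held by a zinc ion, and strings of them read DNA sequence. Many ZNF proteins carry a KRAB box next to their fingers, which recruits the corepressor TRIM28 and, through it, the histone methyltransferase SETDB1 and heterochromatin proteins. Much of the family silences transposable elements, and many of its genes lie in clusters that arose by duplication. Other ZNF genes are individual factors with roles in promoter activation, hormone response, mesenchymal cells, ribosome assembly or RNA metabolism. In bulk tissue, fewer cells of a type and less RNA per cell cannot be told apart.

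More ZNF genes fell than rose in each treated arm. With estradiol, 60 of the 252 members fell, beside 13.2% of all genes, and 13 rose, beside 16.5% of all genes. With tamoxifen, 31 members fell, beside 7.64% of all genes, and 6 rose, beside 8.59%. With the combination, 39 members fell, beside 9.09% of all genes, and 8 rose, beside 10.6%. In both directions together, 29.0% of members and 29.7% of all genes passed with estradiol, 14.7% and 16.2% with tamoxifen, and 18.7% and 19.7% with the combination. The share called was thus close to that of all genes, and falls outnumbered rises among the members but not among all genes.

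The median change of the members was -0.186 with estradiol, against 0.0115 over all genes. It was -0.168 with tamoxifen, against -0.0177, and -0.195 with the combination, against -0.0128. Changes below 0 were found for 169 members with estradiol, which is 67.1% of them, against 48.9% of all genes. They were found for 171 members with tamoxifen (67.9%, against 52.0% of all genes) and 172 with the combination (68.3%, against 51.4%). The 3 comparisons use the same 4 control arrays, so their values are not independent of each other. In each arm the share of members below 0 was above that of all genes. All 4 treated arrays lay below all 4 controls for 53 members with estradiol, beside 13.0% of all genes, for 50 with tamoxifen, beside 11.6%, and for 66 with the combination, beside 13.9%. All 4 lay above the controls for 12 members with estradiol, beside 15.4% of all genes, for 8 with tamoxifen, beside 11.2%, and for 14 with the combination, beside 15.2%. The 31 falls and 6 rises with tamoxifen came to 24 calls in all without tamoxifen array 4, and the 47 calls with the combination came to 30 without combination array 1 or without combination array 3. The calls over all genes went from 16.2% to 11.4% in the first of these fits. They went from 19.7% to 12.4% and 14.3% without combination array 1 and combination array 3.

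**Figure D1:**
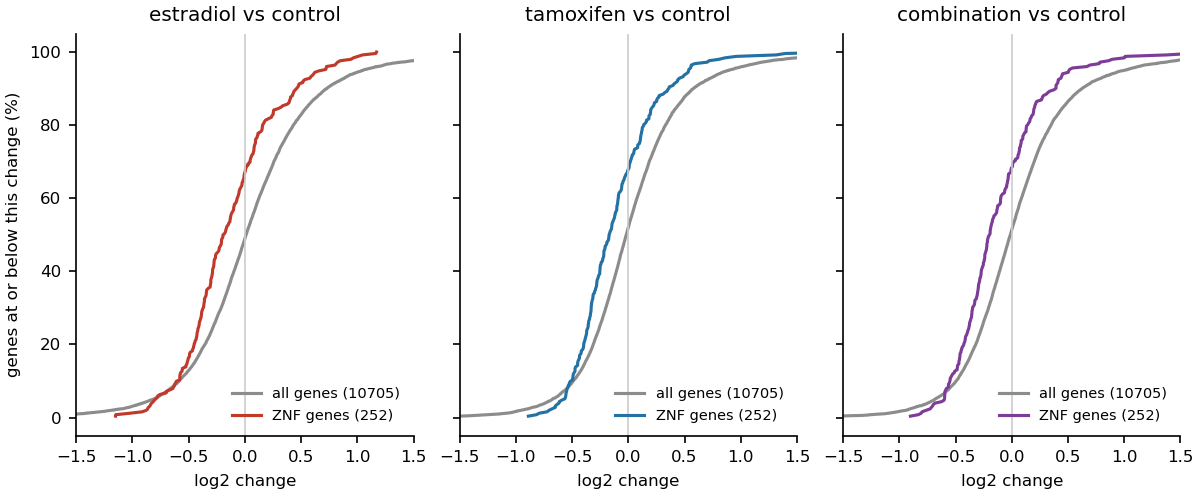
Cumulative share of genes, in percent, at or below each log2 change from control, for the 252 ZNF genes (coloured) and all 10705 genes (grey), with 1 panel for each treated arm. In each panel the ZNF curve runs to the left of the curve of all genes over most of its range, and the medians are -0.186, -0.168 and -0.195 for the ZNF genes.

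Per array, the mean over members of the deviation from each gene's own mean was 0.0889 ± 0.028 (SD, n = 4) in control, with arrays from 0.0529 to 0.116. It was -0.0372 ± 0.057 in estradiol (-0.0848 to 0.0445), -0.0198 ± 0.04 in tamoxifen (-0.0434 to 0.0394) and -0.0319 ± 0.03 in the combination (-0.0603 to 0.00856). All 4 controls lay above all 12 treated arrays. Over the genes that are not ZNF members, the same mean ran from -0.056 to -0.018 in control, and from -0.0057 to 0.055, -0.02 to 0.022 and 0.0026 to 0.037 in the treated arms. Estradiol array 4 and tamoxifen array 1 had the highest ZNF mean of their arms.

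**Figure D2:**
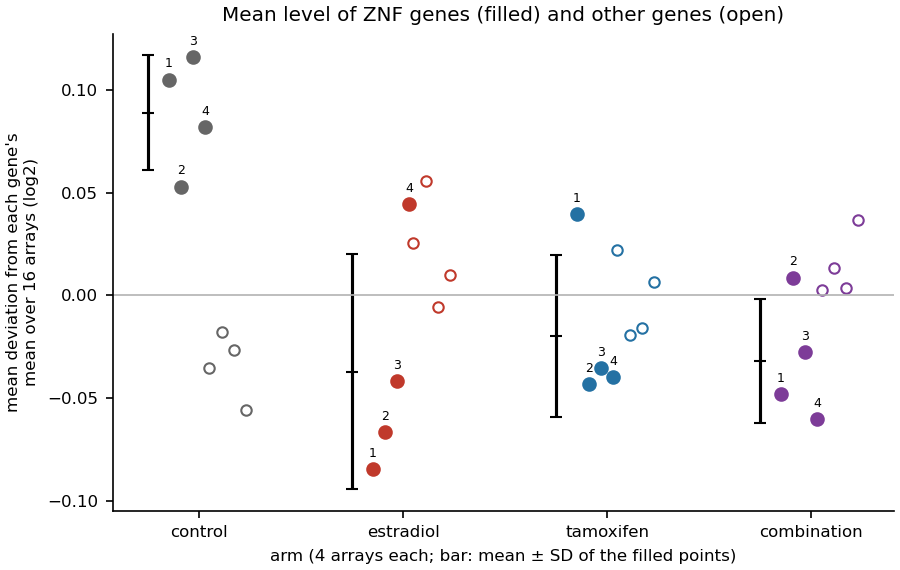
Mean log2 deviation of the 252 ZNF genes (filled points, numbered by array) and of the other genes (open points) from each gene's mean over the 16 arrays, by arm, with bars for mean ± SD of the filled points (n = 4). The filled control points, 0.0529 to 0.116, lie above all filled treated points, of which the highest is 0.0445.

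Measures of RNA quality were set beside these values. The log2 ratio of the 3′ to the 5′ actin probe sets was 0.919 in control and 0.571, 0.521 and 0.548 in estradiol, tamoxifen and the combination (exact permutation test, two-sided, p = 0.0571, 0.0286 and 0.0286, with 0.0286 the smallest that 4 against 4 arrays allow; adjusted over 39 such tests, 0.0928, 0.062 and 0.062). Estradiol array 4, at 0.83, lay above control array 4, at 0.76. The GAPDH ratio was 0.147 in control and -0.014, -0.0211 and 0.0599 in the treated arms (exact p = 0.0571, 0.0286 and 0.0571; adjusted, 0.0928, 0.062 and 0.0928). Estradiol array 2, at 0.0928, and combination array 1, at 0.0898, lay above the lowest control, at 0.0854. All tamoxifen arrays, up to 0.0285, lay below all controls. The EF1a ratio was -0.404 in control and -0.355, -0.431 and -0.397 (exact p = 0.0571, 0.257 and 0.971; adjusted, 0.0928, 0.334 and 0.971), so it did not go one way. Apart from estradiol array 4, every treated array had an actin ratio of at most 0.644, below every control. Tests at the smallest possible p had an adjusted p of 0.062, so the adjusted values cannot show that the arms were alike. The part of RNA quality in the ZNF changes was not tested.

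Summed signals of several marker lists of cell types also differed between arms. The exact permutation test on their mean log2 deviations gave no adjusted p under 0.062, the value of tests at the smallest possible p. Epithelial and stromal markers stood at that smallest exact p, 0.0286, in every treated arm, and the other cell type lists in some arms or none. The summed signal of the 10 measured of 16 epithelial markers, which do not include CDH1 and KRT7, ran from 3819 to 4208 in control, 5616 to 10090 in estradiol, 5262 to 10330 in tamoxifen and 5794 to 7740 in the combination. That of the 13 measured of 15 stromal fibroblast markers ran from 38990 to 39830, 56310 to 62960, 44560 to 55770 and 41740 to 52490 in the same order. That of the 8 measured of 11 markers of dividing cells ran from 605.2 to 751.0, 1074 to 2564, 539.3 to 1070 and 710.0 to 972.2. Epithelial and stromal markers were therefore lowest in control, where the ZNF mean was highest. Within each treated arm, the array with the highest mean log2 deviation of epithelial markers also had the highest ZNF mean. These arrays were estradiol 4 (0.937 and 0.0445), tamoxifen 1 (0.926 and 0.0394) and combination 2 (0.469 and 0.00856). Stromal markers were lowest of their arm in estradiol 4 and tamoxifen 1, but not in combination 2. The 6 measured of 12 T and NK cell markers, without CD3D, CD3E and CD3G, ran from 3454 to 5730, 2291 to 4927, 2443 to 3743 and 1645 to 3153, and the 10 measured of 11 endothelial markers from 7171 to 8657, 3860 to 6624, 4653 to 7380 and 5256 to 6831. The summed signal of the 6 measured of 8 ciliated cell markers ran from 542.9 to 789.6 in control, 1379 to 2783, 1095 to 4198 and 1895 to 2150. This sum was thus also lowest in control. Their mean log2 deviation, -1.06 to -0.257 in control, overlapped with estradiol (-0.876 to 1.06) and tamoxifen (-0.344 to 1.7). Only 1 of the 6 markers rose in each treated arm. The 8 measured of 10 macrophage markers ran from 3930 to 4743 in control, 2870 to 3999 in estradiol, and 2854 to 3759 and 3150 to 3777 in the other arms. The macrophage mean log2 deviation, -0.0674 to 0.575 in control, overlapped with estradiol (-0.201 to 0.305), tamoxifen (-0.438 to 0.0182) and the combination (-0.493 to 0.302). Its exact permutation p was 0.429, 0.2 and 0.143 in the same order. The 2 measured of 6 B and plasma cell markers overlapped between control and every treated arm. The 9 measured of 12 smooth muscle markers, which mark the muscle wall and vessels and lack ACTA2 and DES here, ran from 41140 to 50100, 6968 to 48840, 25400 to 58240 and 47990 to 52600. Their mean log2 deviation was -3.26 in estradiol array 4 and -0.871 in tamoxifen array 1. The part of these measures in the ZNF changes was not tested. An unplanned fit left out estradiol array 4 and tamoxifen array 1, which stood out above. In it 12 members rose and 63 fell with estradiol, 4 and 33 with tamoxifen, and 10 and 49 with the combination. Of all genes, 28.7%, 13.9% and 24.0% were called in that fit, against 29.7%, 16.2% and 19.7% with all arrays.

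With estradiol, the lowest changes among members whose arrays did not overlap with control were those of ZNF503, ZNF732, ZNF671, ZNF585B, ZNF7, ZNF335, ZNF160 and ZNF395, all of which fell. ZNF503, a transcriptional repressor of the NET family that acts in development and in mammary epithelium, had control arrays at 11.23, 11.51, 11.29 and 11.64 and estradiol arrays at 10.41, 10.47, 10.86 and 9.33. Every estradiol array lay below every control, with 1 of them far under the other 3, and the change was -1.15 ± 0.29 (adjusted p = 0.0088). It had tamoxifen arrays at 10.16, 11.33, 10.59 and 11.37 and combination arrays at 10.98, 11.05, 11.03 and 11.09, changes of -0.56 ± 0.29 and -0.38 ± 0.29 that did not pass the test (adjusted p = 0.214 and 0.395). The tamoxifen arrays of this gene fell into 2 near control and 2 lower, while the combination arrays lay close together.

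ZNF395, also known as a papillomavirus binding factor, had control arrays at 10.51, 10.66, 10.34 and 10.52 and estradiol arrays at 9.51, 9.50, 9.70 and 9.97. Every estradiol array lay below every control, and the change was -0.84 ± 0.11 (adjusted p = 0.000177). All 4 kept probe sets of ZNF395 passed the test in the same direction in each comparison with control. ZNF335, a component of a nuclear receptor coactivator complex, had control arrays at 8.53, 8.83, 8.35 and 8.63 and estradiol arrays at 7.55, 7.62, 7.93 and 7.82. It fell by 0.86 (adjusted p = 0.000498), with no overlap between arms. ZNF343 had control arrays at 9.22, 9.17, 9.02 and 9.12 and estradiol arrays at 8.23, 8.46, 8.26 and 8.42. Its change of -0.79 ± 0.10 carried the smallest adjusted p of a ZNF gene that does not lie next to another, 0.000118.

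The family members ZNF732, ZNF671, ZNF585B, ZNF7 and ZNF160 fell with estradiol by 1.15, 0.91, 0.88, 0.86 and 0.84. ZNF732 had control arrays at 8.71, 9.08, 8.68 and 9.15 and estradiol arrays at 7.73, 7.12, 7.82 and 8.38, the widest estradiol spread of these 5. ZNF7 had control arrays at 10.19, 9.96, 10.25 and 9.92 and estradiol arrays at 9.07, 9.28, 9.38 and 9.15. ZNF160 had control arrays at 8.15, 8.38, 8.32 and 7.93 and estradiol arrays at 7.18, 7.22, 7.50 and 7.50. The calls of ZNF503, ZNF395, ZNF335, ZNF343, ZNF732, ZNF671, ZNF585B, ZNF7 and ZNF160 with estradiol held in each of the 16 fits that left out 1 array. ZNF512, which also stood alone in gene order, fell by 0.49 (adjusted p = 0.000496).

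The 8 ZNF genes that rose most with estradiol without overlap were ZNF593, ZNF469, ZNF391, ZNF668, ZNF703, ZNF704, ZNF619 and ZNF669. ZNF593, a nucleolar protein of ribosome assembly, had control arrays at 8.05, 8.01, 8.31 and 7.89 and estradiol arrays at 8.98, 9.06, 8.62 and 9.45. Each estradiol array lay above each control, and the rise was 0.97 ± 0.15 (adjusted p = 0.000433). ZNF469, whose loss causes a brittle cornea and which is linked to collagen, had control arrays at 7.17, 7.06, 6.85 and 7.12 and estradiol arrays at 8.62, 8.02, 7.50 and 7.84. The controls lay close together and the estradiol arrays spread widely above them, with a rise of 0.94 ± 0.25 (adjusted p = 0.0127). ZNF391 and ZNF668, the latter linked to the DNA damage response, rose by 0.85 and 0.81 (adjusted p = 0.0133 and 0.00289). ZNF704, ZNF619 and ZNF669 rose by 0.73, 0.52 and 0.47 (adjusted p = 0.0174, 0.0401 and 0.019). Without control array 3 the adjusted p of ZNF704 was 0.0505, and without control array 1 that of ZNF669 was 0.0573. ZNF619 lost its call without any 1 of the 4 estradiol arrays or control arrays 1, 2 or 4, with an adjusted p of up to 0.111.

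The estradiol changes split 2 pairs of close relatives, which were picked after their values were seen. ZNF703, the NET family relative of ZNF503 and a breast cancer oncogene, had control arrays at 8.71, 8.58, 8.74 and 8.17 and estradiol arrays at 9.26, 9.39, 8.87 and 9.89. It rose by 0.80 (adjusted p = 0.0152) where ZNF503 fell by 1.15. ZNF704, a relative of ZNF395, had control arrays at 8.03, 6.98, 7.23 and 7.67 and estradiol arrays at 8.16, 8.10, 8.29 and 8.27. It rose where ZNF395 fell by 0.84. The second probe sets of ZNF503 and ZNF704 changed by -0.421 and 0.254 with estradiol, neither past limma's threshold (adjusted p = 0.363 and 0.343). With tamoxifen and the combination, ZNF703 had changes of 0.56 ± 0.22 and 0.50 ± 0.22 (adjusted p = 0.104 and 0.136), neither past the threshold.

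**Figure D3:**
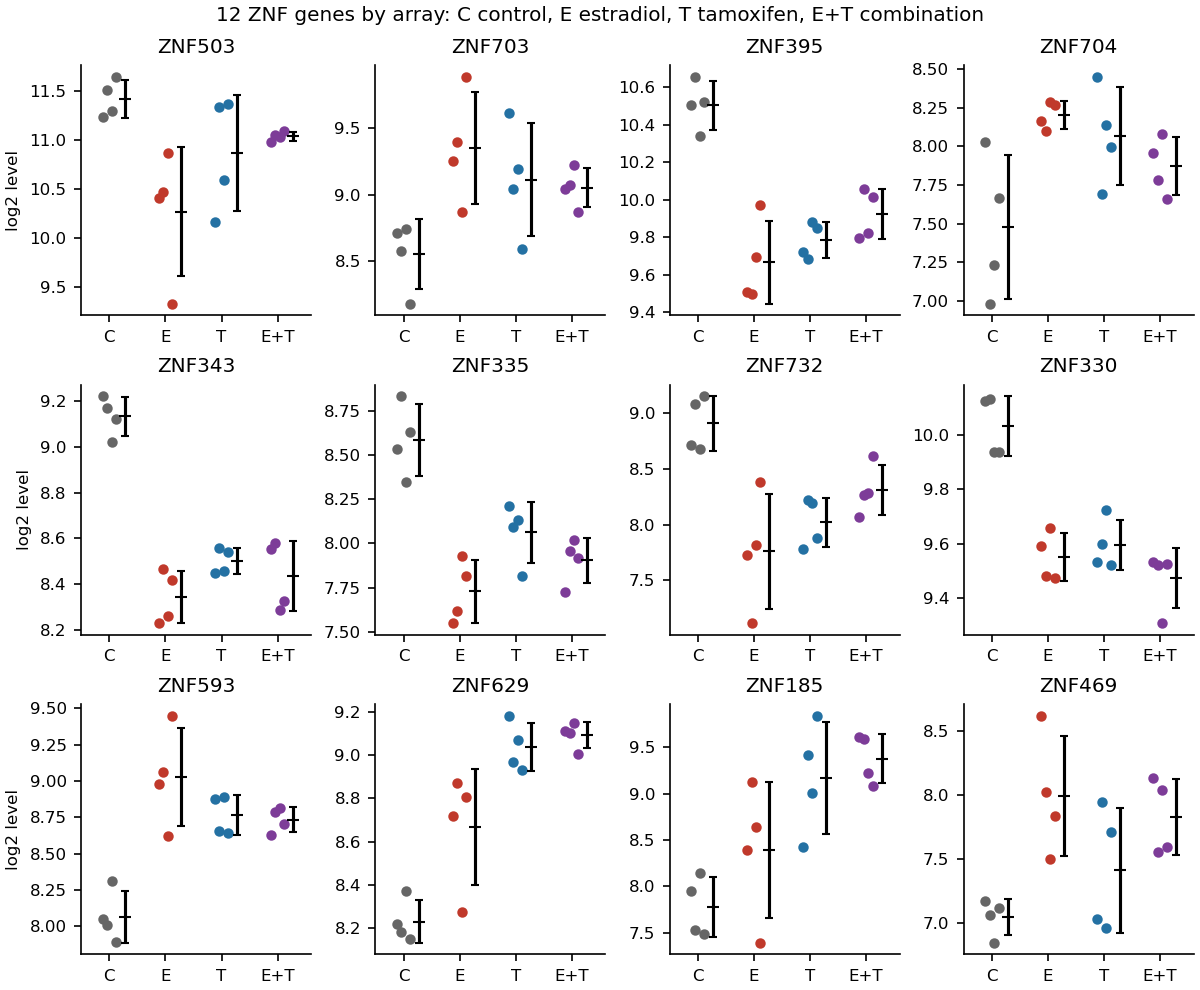
log2 level of 12 ZNF genes on each array, by arm, with bars for mean ± SD (n = 4); each panel has its own vertical range, which does not start at 0. ZNF503, ZNF395, ZNF343, ZNF335, ZNF732 and ZNF330 have all estradiol arrays below all controls, and ZNF703, ZNF704, ZNF593 and ZNF469 have all of them above, while ZNF629 and ZNF185 have an estradiol array within or below the control range.

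With tamoxifen, the 8 lowest changes without overlap belonged to ZNF732, ZNF441, ZNF395, ZNF800, ZNF524, ZNF638, ZNF343 and ZNF438. ZNF395 had tamoxifen arrays at 9.72, 9.68, 9.88 and 9.85, all below the controls given above, and fell by 0.72 (adjusted p = 0.00143). ZNF343 had tamoxifen arrays at 8.45, 8.56, 8.46 and 8.54, a fall of 0.63 (adjusted p = 0.00151). ZNF732 had tamoxifen arrays at 7.78, 8.22, 8.19 and 7.88 and fell by 0.89 (adjusted p = 0.0156). These tamoxifen arrays lay closer together than the estradiol arrays of the same genes. ZNF800, ZNF524 and ZNF438 fell by 0.71, 0.68 and 0.61 (adjusted p = 0.00865, 0.012 and 0.0129). The second kept probe set of ZNF800 changed by -0.0402 with tamoxifen, and with the mean of both its adjusted p was 0.262. ZNF441 fell by 0.79 (adjusted p = 0.0238), and lost its call without control array 3 or 4 or tamoxifen array 3 or 4, with an adjusted p of up to 0.0677.

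ZNF638, a nuclear protein that binds nucleic acids and silences unintegrated retroviral DNA, rested on the choice of probe set. Its brightest probe set fell by 0.65 with tamoxifen (adjusted p = 0.00525), while a second, with a mean level of 9.65 against 9.66, changed by -0.226 (adjusted p = 0.309). Leaving out control array 1, 3 or 4, estradiol array 1 or 3 or tamoxifen array 2 changed which of them was brighter, and the change with tamoxifen then came to as little as -0.141.

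Of the 6 members that rose with tamoxifen, ZNF185 changed most. ZNF185 is a LIM domain protein bound to actin and no C2H2 factor, in spite of its name. It had control arrays at 7.95, 7.53, 8.14 and 7.48 and tamoxifen arrays at 8.42, 9.42, 9.00 and 9.84, and rose by 1.40 (adjusted p = 0.0131). Its estradiol arrays, at 8.39, 9.13, 8.64 and 7.39, ran from below the controls to above them, a change of 0.61 ± 0.33 (adjusted p = 0.192). ZNF629 had control arrays at 8.22, 8.18, 8.37 and 8.15 and tamoxifen arrays at 9.18, 8.97, 9.07 and 8.93. The tamoxifen arrays lay well above all controls, a rise of 0.81 (adjusted p = 0.00115). ZNF391, ZNF593, ZNF668 and ZNF275 rose by 0.96, 0.70, 0.55 and 0.53 (adjusted p = 0.013, 0.00757, 0.0408 and 0.0317). ZNF668 lost this call in 8 of the 16 fits without 1 array, namely those without control 2 or 4, estradiol 2, tamoxifen 1, 3 or 4 or combination 2 or 3 (adjusted p up to 0.103). ZNF275 lost it without control 1 or 4 or tamoxifen 1 or 3 (adjusted p up to 0.0967).

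With the combination, ZNF585B, ZNF334, ZNF141, ZNF559, ZNF441, ZNF343, ZNF335 and ZNF248 had the lowest changes without overlap. ZNF585B had control arrays at 7.07, 7.19, 7.06 and 6.98 and combination arrays at 6.08, 6.41, 6.08 and 6.40, and fell by 0.83 (adjusted p = 0.00338). ZNF334 and ZNF248 fell by 0.80 and 0.62 (adjusted p = 0.0156 and 0.00801). ZNF343 had combination arrays at 8.55, 8.58, 8.29 and 8.32 and fell by 0.70 (adjusted p = 0.000599). ZNF335 fell by 0.68 (adjusted p = 0.00408). In each of these 5 genes all combination arrays lay below all controls. ZNF559 fell by 0.71 (adjusted p = 0.0108), with combination arrays at 8.77, 9.44, 8.85 and 8.78, of which the second stood apart from the others. ZNF141 and ZNF441 fell by 0.76 and 0.70 (adjusted p = 0.0176 and 0.036). ZNF141 lost the call without control 1 or combination 2 or 3 (adjusted p up to 0.0531). ZNF441 lost it without control 2, 3 or 4 or combination 1, 3 or 4 (adjusted p up to 0.102).

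The 8 members that rose with the combination were ZNF185, ZNF391, ZNF215, ZNF668, ZNF629, ZNF469, ZNF608 and ZNF593. ZNF185 had combination arrays at 9.61, 9.59, 9.22 and 9.08, all above the controls, and rose by 1.60 (adjusted p = 0.00532). ZNF629 had combination arrays at 9.11, 9.10, 9.15 and 9.01, within a narrow band above the controls, and rose by 0.86 (adjusted p = 0.000532). ZNF593 had combination arrays at 8.62, 8.79, 8.81 and 8.70 and rose by 0.67 (adjusted p = 0.00801). ZNF391 and ZNF668 rose by 1.01 and 0.89 (adjusted p = 0.0087 and 0.00303). In all 5 genes every combination array lay above every control. ZNF215, ZNF608 and ZNF469 rose by 1.00, 0.78 and 0.78 (adjusted p = 0.0252, 0.0335 and 0.0458), and these calls were less firm. ZNF215 lost its call without control 4 or combination 2, 3 or 4 (adjusted p up to 0.0722), and ZNF608 without control 1, 3 or 4 or combination 1, 2 or 4 (up to 0.0924). ZNF469 lost it without any 1 of the control or combination arrays, estradiol 2 or tamoxifen 4 (up to 0.127).

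Members with a known role outside the silencing of repeats were followed in every comparison, and 25 of the 35 listed were measured. Among factors of gene activation, ZNF148, which binds GC-rich promoters, had control arrays at 11.58, 11.72, 11.47 and 11.61 and estradiol arrays at 11.06, 11.06, 11.26 and 11.30. All estradiol arrays were lower, and it fell by 0.43 (adjusted p = 0.00201). It fell by 0.30 with the combination (adjusted p = 0.0247), a call lost without control 2 or 4 or combination 2, 3 or 4 (adjusted p up to 0.0642). Its change with tamoxifen was -0.25 ± 0.084 (adjusted p = 0.0565). ZNF143, an activator of many housekeeping promoters, fell by 0.43 with estradiol (adjusted p = 0.00878), as did ZNF292, by 0.58 (adjusted p = 0.00876). ZNF330, a nucleolar protein, had control arrays at 10.13, 10.13, 9.94 and 9.94 and estradiol arrays at 9.59, 9.48, 9.66 and 9.47. It fell by 0.48, 0.44 and 0.56 with estradiol, tamoxifen and the combination (adjusted p = 0.00142, 0.00613 and 0.00115), where the ribosome assembly factor ZNF593 rose in all 3. The nucleolar members thus split by direction, and ZNF330 had no overlap between control and any treated arm.

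ZNF350, known as ZBRK1, a repressor that binds BRCA1, fell by 0.78 with estradiol (adjusted p = 0.00186) and by 0.56 with tamoxifen (adjusted p = 0.0244). The second call was lost without control 1, 2 or 3 or tamoxifen 1 or 4 (adjusted p up to 0.0697). ZNF217, an oncogene amplified in breast cancer, fell by 0.46 with estradiol (adjusted p = 0.0397), and lost the call without control 1, 2 or 3 or estradiol 1 or 3 (up to 0.114). ZNF331, an imprinted gene, fell by 0.83 with estradiol (adjusted p = 0.0176), and lost the call without control 1, 3 or 4 or estradiol 2 (up to 0.0554). ZNF830 had an adjusted p of 0.0493 with estradiol and lost the call in 14 of 16 fits without 1 array (adjusted p up to 0.132). These 4 members all had changes below 0 with estradiol, and among them ZNF350 alone kept its estradiol call in all 16 fits without 1 array. The mesenchymal factors ZNF423 and ZNF521 did not pass on their brightest probe sets in any comparison with control, while a second ZNF521 probe set passed with estradiol at 0.322 (adjusted p = 0.0378). ZNF423 had changes of 0.66 ± 0.26, 0.41 ± 0.26 and 0.055 ± 0.26 with estradiol, tamoxifen and the combination, and ZNF521 of 0.25 ± 0.13, 0.11 ± 0.13 and 0.032 ± 0.13. Among members whose brightest probe set did not pass with estradiol were also ZNF385B at 1.17 ± 0.46, ZNF711 at 0.12 ± 0.20, ZNF598, a ubiquitin ligase that senses collided ribosomes, at -0.19 ± 0.17, ZNF384 at -0.29 ± 0.12, ZNF462 at 0.011 ± 0.19, ZNF326 at 0.16 ± 0.14, ZNF268 at 0.26 ± 0.22 and ZNF24 at 0.082 ± 0.36. Second probe sets of ZNF326 and ZNF384 passed with estradiol, at 0.469 and -0.503 (adjusted p = 0.0404 and 0.0116), and that of ZNF326 also with tamoxifen, at 0.594 (0.0227). ZNF106 and ZNF385A had changes of -0.16 ± 0.13 and 0.076 ± 0.15.

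No ZNF gene passed limma's test between treated arms. For the combination against estradiol, 0 members passed, beside 1.33% of all genes, with 33 members (13.1%) at an unadjusted p under 0.05, beside 17.9% of all genes. For tamoxifen against estradiol, 0 passed, beside 0.71%, with 22 (8.73%) at an unadjusted p under 0.05, beside 14.6%. For the combination against tamoxifen 0 passed, beside 0.0%, with 5 (1.98%) at an unadjusted p under 0.05, beside 3.7%. Without estradiol array 3, 4 members passed for the combination against estradiol and 3 for tamoxifen against estradiol, beside 4.3% and 2.61% of all genes in that fit, and 1 passed for the latter without control array 2, beside 0.72%. The smallest p for the combination against estradiol belonged to ZNF141, ZNF629, ZNF22, ZNF711 and ZNF350, with changes of -0.74 ± 0.20, 0.42 ± 0.12, -0.37 ± 0.11, -0.63 ± 0.20 and 0.48 ± 0.15. For tamoxifen against estradiol it belonged to ZNF672, ZNF160, ZNF587, ZNF629 and ZNF331, with changes of -0.35 ± 0.09, 0.53 ± 0.15, 0.49 ± 0.15, 0.37 ± 0.12 and 0.71 ± 0.23. For the combination against tamoxifen it belonged to ZNF385A, ZNF891, ZNF92, ZNF766 and ZNF141, with changes of -0.47 ± 0.15, -0.80 ± 0.32, -0.67 ± 0.29, -0.30 ± 0.13 and -0.43 ± 0.20.

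Estradiol can be compared with its absence in arrays that share no sample, with and without tamoxifen. The changes of the 252 members with estradiol against control and with the combination against tamoxifen had a Pearson correlation of 0.0751 across genes, which are not independent replicates, and the same sign for 52.0%. Over all genes the correlation was 0.0689 and the same sign was found for 50.3%. Of the 60 members that fell with estradiol, 35 had a change below 0 in the combination against tamoxifen, with a median of -0.0232, beside 676 of 1410 such genes among all. Of the 31 that fell with tamoxifen, 11 had a change below 0 in the combination against estradiol, beside 325 of 818 among all genes, and the correlation over members was -0.0186, against 0.0494 over all genes. Of the 13 members that rose with estradiol, 7 had a change above 0 in the combination against tamoxifen, beside 977 of 1766 among all genes.

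**Figure D4:**
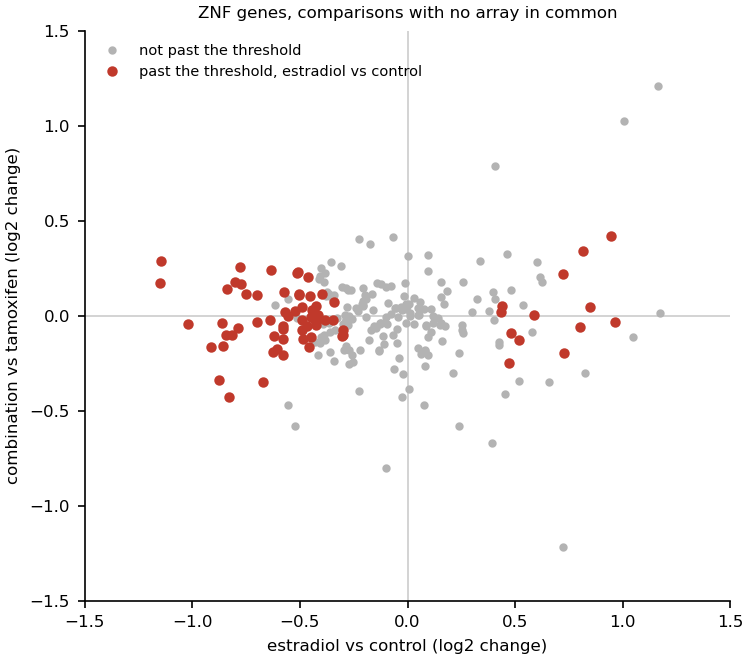
log2 change of each of the 252 ZNF genes with estradiol against control (horizontal) and with the combination against tamoxifen (vertical), comparisons that share no array; red points passed the test with estradiol. The red points spread along the horizontal axis and lie on both sides of 0 on the vertical one, with a median of -0.0232 there for the 60 that fell.

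The interaction asks whether the change with both agents differs from the sum of the changes with each. It was above 0 for 17 members past the threshold, beside 4.77% of all genes, and below 0 for 2, beside 6.55%. The median over members was 0.178, against -0.0139 over all genes. In both directions together, 7.54% of members and 11.3% of all genes passed. The count of 19 depended on single arrays: it was 8 without estradiol 1, 11 without estradiol 2, 34 without estradiol 3, 12 without tamoxifen 1 and 11 without combination 4. The calls over all genes moved as well, from 11.3% with all arrays to 6.75%, 7.2%, 16.4%, 8.01% and 8.29% in these fits, in the same directions as the ZNF counts. The 4 control arrays enter the interaction and each single change with opposite sign, so a high control value lowers the changes and raises the interaction. ZNF732 had the highest interaction, 1.44 ± 0.31 (adjusted p = 0.0115), with changes of -1.15 ± 0.22, -0.89 ± 0.22 and -0.60 ± 0.22 with estradiol, tamoxifen and the combination. Its combination arrays stood at 8.07, 8.27, 8.28 and 8.62, and the change of their mean from control was smaller in size than either single change. ZNF350, ZNF699, ZNF395 and ZNF800 had interactions of 1.03 ± 0.21, 0.98 ± 0.23, 0.98 ± 0.16 and 0.87 ± 0.22 (adjusted p = 0.00949, 0.0161, 0.00331 and 0.0222), and that of ZNF800 was lost without estradiol 1 (0.0501) and with the mean of its probe sets (0.455). The second ZNF800 probe set changed by -0.193, -0.0402 and -0.347 with estradiol, tamoxifen and the combination, none past the threshold. ZNF593 and ZNF669 had interactions below 0, -0.997 ± 0.21 and -0.72 ± 0.19 (adjusted p = 0.0107 and 0.0291). The call of ZNF669 was lost without control 1 or 3, estradiol 1 or 2, tamoxifen 1 or 3 or combination 4 (adjusted p up to 0.0583).

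**Figure D5:**
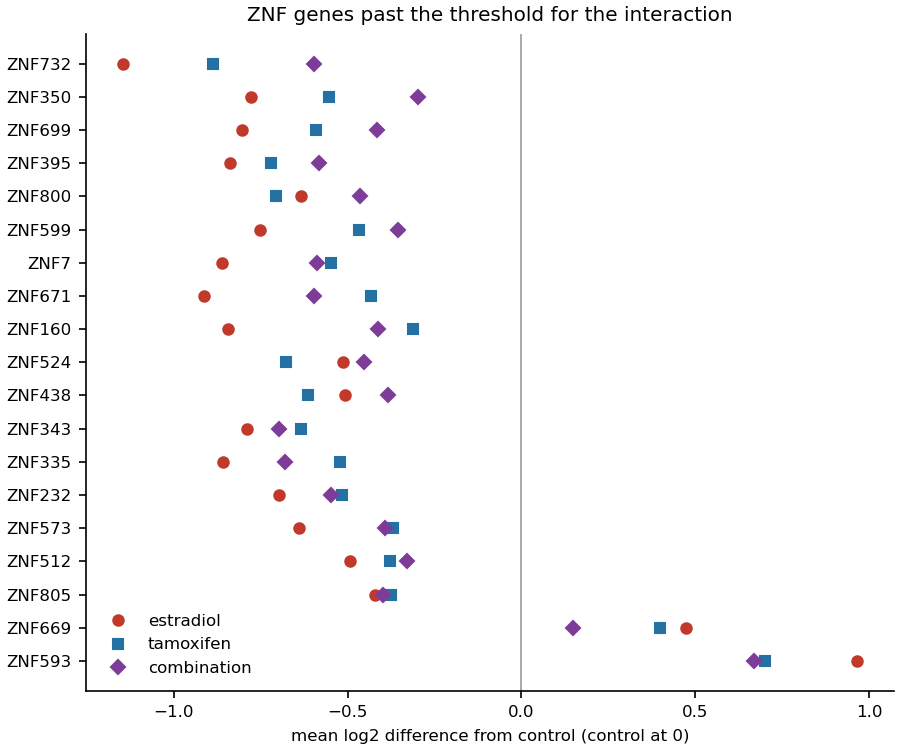
Mean log2 change from control with estradiol (circles), tamoxifen (squares) and the combination (diamonds) for the 19 ZNF genes past the threshold for the interaction. For the 17 genes with an interaction above 0 all 3 changes lie below 0, and the combination lies nearer to 0 than the sum of the single changes.

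The partners of KRAB zinc finger proteins were followed by a list. Of 36 corepressor and chromatin genes listed, 27 were measured, and with estradiol 5 rose and 1 fell, beside 16.5% and 13.2% of all genes; 5 of 27 is close to the share of all genes. TRIM28 itself had control arrays from 10.85 to 11.31 and estradiol arrays from 10.89 to 11.06, inside the control range, and changes of -0.11 ± 0.10, -0.25 ± 0.10 and -0.12 ± 0.10 with estradiol, tamoxifen and the combination. SETDB1 had changes of -0.098 ± 0.093, -0.23 ± 0.093 and -0.056 ± 0.093, and neither gene passed. SUV39H2, a histone methyltransferase, DNMT3A, a DNA methyltransferase, and CBX3, a heterochromatin protein, rose with estradiol by 1.13, 0.92 and 0.41 (adjusted p = 0.000477, 0.00716 and 0.013), as did RBBP7 and PPHLN1. DNMT1, the maintenance DNA methyltransferase, had control arrays at 9.42, 9.48, 9.38 and 9.44 and estradiol arrays at 7.95, 7.89, 8.53 and 7.12. All estradiol arrays were lower, and it fell by 1.55 (adjusted p = 0.000536). With tamoxifen DNMT1 fell by 0.86 (adjusted p = 0.0322), a call lost without any 1 control array or tamoxifen 1 or 3 (up to 0.0942). With the combination SUV39H1 fell by 0.46 (adjusted p = 0.0263), a call lost without control 1 or 2 or combination 1 or 2 (up to 0.0762). Among 101 measured genes with other C2H2 family names, 27 fell and 3 rose with estradiol, 13 and 3 with tamoxifen, and 16 and 3 with the combination, with medians of -0.125, -0.123 and -0.115. Falls thus outnumbered rises there too, as among the ZNF members, of which 23.8% fell and 5.16% rose with estradiol. Of all genes, 13.2% fell and 16.5% rose with estradiol, 7.64% and 8.59% with tamoxifen, and 9.09% and 10.6% with the combination.

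Within the ZNF family, brighter members were called more often with estradiol in both directions, as brighter genes were in general. In the dimmest, middle and brightest parts of equal size, with 84 members each, 10.7%, 23.8% and 36.9% fell, beside 6.92%, 12.5% and 17.1% of all genes in the same ranges of level. In these parts 2, 5 and 6 members rose, beside 340 of 2892, 430 of 2749 and 996 of 5064 genes. The shares were close for members in and outside runs of ZNF genes: of 101 members whose neighbour in the order of genes on the RefSeq annotation of the cynomolgus genome (assembly T2T-MFA8v1.1) is another ZNF gene, 23 fell (22.8%), and of 130 that have no such neighbour, 30 fell (23.1%). Of 21 members whose symbol is not in that table, 7 fell. One run of neighbours, picked with its values in view, holds ZNF805, ZNF460, ZNF547, ZNF548, ZNF17, ZNF749, ZNF549 and ZNF416. Of these 8, 4 fell with estradiol, beside 13.2% of all genes, and the median change of the 8 was -0.394. Among the 4 is ZNF547, whose brightest probe set changed by -0.503 (adjusted p = 0.0401). Its other kept probe sets changed by 0.735 and 0.67, neither past the threshold. ZNF805 had control arrays at 10.43, 10.47, 10.36 and 10.54 and estradiol arrays at 9.89, 10.07, 10.01 and 10.15, and fell by 0.42 (adjusted p = 0.00187). Another run, of ZNF554, ZNF555, ZNF556, ZNF57 and ZNF77, had no member past limma's test with estradiol and a median change of 0.406. ZNF398, in a further run of 5 members, fell by 0.49 with tamoxifen and 0.54 with the combination (adjusted p = 0.00649 and 0.00286). The adjusted p of ZNF398 with tamoxifen was 0.0573 with the mean of its probe sets.

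Related ZNF genes share finger sequences, and probe sets that the platform marks as open to several transcripts bear on that. Of 12 members read by a probe set with the suffix _s_at, 6 fell with estradiol, and of 4 read by one with the suffix _x_at, 1 fell, beside 53 of 236 read by the suffix _at. For 96 members with several kept probe sets, the next brightest had the same sign of change for 71 with estradiol, 58 with tamoxifen and 64 with the combination. Of 27, 14 and 16 such members that passed, the next brightest passed in the same direction for 8, 1 and 2. Most members lay below 0 in the 3 comparisons (67.1%, 67.9% and 68.3%), so unrelated probe sets would often share a sign too. No share over all genes stands beside these counts, and they are not read as agreement between probe sets. Probe sets of ZNF652 and ZNF689 with estradiol, and of ZNF547 with tamoxifen, passed the test in opposite directions. The brightest ZNF652 probe set, of suffix _x_at, changed by -0.302 with estradiol and its second by 0.418, and the former call was lost without control 4 (0.0516) and with quantile normalization (0.479). The brightest ZNF689 probe set changed by 0.587 with estradiol and the dimmer one by -0.516, and the former call was lost without control 2 or estradiol 2 (up to 0.0601). The brightest ZNF547 probe set changed by -0.534 with tamoxifen and the dimmest by 0.948, and the former call was lost in 14 of 16 fits without 1 array (adjusted p up to 0.138). For these 3 genes the direction depends on the probe set read. ZNF627, read by an _s_at probe set, fell by 0.45, 0.55 and 0.55 in the 3 treated arms, while its _at probe set changed by -0.156, -0.249 and -0.00633. The ZNF627 calls were lost without control 2, and without estradiol 2 or 4, tamoxifen 2 or 4 and combination 3 or 4 in the comparison of that arm (adjusted p up to 0.0949, 0.0634 and 0.0562). ZNF787 and ZNF706 fell with estradiol by 0.57 and 0.34 (adjusted p = 0.0123 and 0.0133).

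The brightest members were ZNF652, ZNF148, ZNF532, ZNF503 and ZNF22, with mean levels of 13.64, 11.35, 11.12, 10.90 and 10.72 on their own probe sets, which do not compare amounts of transcript. The median residual spread within arms was 0.225 for the members and 0.239 for all genes. It was largest for ZNF718, ZNF467, ZNF554, ZNF286A and ZNF451, with residual SDs of 1.08, 1.06, 0.968, 0.967 and 0.836. ZNF467 shows how such a spread looks: its control arrays stood at 6.30, 5.73, 3.84 and 3.32, its estradiol arrays at 5.97, 6.96, 3.70 and 6.74 and its tamoxifen arrays at 7.10, 7.01, 6.18 and 6.53, so 2 control arrays and 1 estradiol array lay far below the other 13. At the filter, ZNF28, ZNF554, ZNF415, ZNF276 and ZNF613 were just inside, with mean levels from 5.399 to 5.553, and ZNF181, ZNF214, ZNF367, ZNF709 and ZNF485 just outside, from 5.175 to 5.321.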

How the data were processed

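Total RNA of frozen endometrium was hybridised to 1-colour Affymetrix arrays, 1 per animal, and arrays were placed in arms by their titles. Each array's deposited column holds 1 linear intensity per probe set. It was made with MAS5, GCOS and Affymetrix Expression Console per the submitters' processing notes, and versions and the scaling target are not given in the sources used here. The mean trimmed by 2% on both sides was 250.0 on every array, so the authors' scaling was kept, which makes each change relative to the array's total. Log2 was taken of the deposited intensity plus a pseudocount of 4.80, the 10th percentile of all values, which understates changes of dim probe sets.

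The 99 control probe sets and the lowest 40% of the rest by mean level (minimum 5.36) were left out. limma 3.58.1 in R 4.3.3 was fitted to 31659 probe sets on all 16 arrays with a mean per arm, 12 residual degrees of freedom and an eBayes trend, for 7 comparisons; p-values were adjusted by Benjamini-Hochberg. The fit was tested on simulated data. In the platform annotation 24956 probe sets carry 1 symbol, 361 more than 1 and 27449 none, and only single symbols were used. Members and lists were chosen with earlier results of these data known. Genes were named by rule: the 8 highest and 8 lowest changes from control past the threshold without overlap of arrays; the 5 highest and 5 lowest of the interaction; the 5 smallest p where fewer than 3 passed; 35 genes of known role; the 5 brightest, the 5 most variable and those at the filter; genes with probe sets called in opposite directions; and up to 4 genes of each subgroup. Of the members, 231 matched a symbol of the RefSeq table. Probe, protein and promoter sequences were not used here, so KRAB boxes, finger numbers and cross-hybridisation were not analysed here. Alternatives changed the pseudocount, filter, scaling, probe set rule, variance model and arrays, and added a replicate block. The animals were randomized to arms, and 4 arrays per arm limit the precision.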

Additional observations from a re-analysis of the deposited data

Results flagged for a closer look

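In 90 measures, each with 4 arms of 4 arrays, the array farthest from its arm was set against the rest by Dixon's test at its 95% limit. Of 360 groups, 22 held an array beyond that limit, and chance gives about 1 in 20 groups. Among the control arrays, ZNF215 stood at 5.69 in control 4 with the others from 6.53 to 6.68, ZNF331 at 7.05 in control 2 with the others from 8.27 to 8.41, and ZNF718 at 6.99 in control 3 with the others from 4.85 to 5.16. Among the estradiol arrays, array 4 stood high for ZNF711 at 10.32 (others 9.29 to 9.34), for ZNF652 at 13.60 (others 13.41 to 13.43) and for ZNF787 at 7.45 (others 7.19 to 7.22). Estradiol array 3 stood high for ZNF350 at 7.83 (others 7.13 to 7.23) and low for ZNF672 at 8.71 (others 8.88 to 8.91). Estradiol array 2 stood low for ZNF547 at 6.06 (others 6.55 to 6.65) and for ZNF512 at 10.41 (others 10.52 to 10.53). ZNF554 was at 2.84 in tamoxifen 3, with the others from 5.73 to 6.29. Among the combination arrays, array 2 stood high for ZNF559 at 9.44 (others 8.77 to 8.85), array 4 for ZNF92 at 7.47 (others 6.6 to 6.67) and array 1 for ZNF326 at 10 (others 9.66 to 9.71). Combination array 3 stood low for ZNF330 at 9.3 (others 9.52 to 9.53) and for ZNF451 at 7.8 (others 8.72 to 8.88).

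Among summary measures, the mean deviation of the ZNF members was 0.0394 in tamoxifen 1, with the others from -0.0434 to -0.0355, and the macrophage markers were at -0.438 in the same array, with the others from -0.0046 to 0.0182. The smooth muscle markers were at -3.26 in estradiol 4 (others 0.0631 to 0.324), the markers of dividing cells at 0.334 in estradiol 3 (others 1.37 to 1.57) and the estrogen response genes at 0.386 in estradiol 2 (others 0.483 to 0.495). The stromal fibroblast markers were at 0.203 in combination 1 (others -0.019 to 0.0149).

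The effect of adding 1 agent differed with the presence of the other for 7 named ZNF genes by limma's interaction term. The interaction was 1.44 for ZNF732, 1.03 for ZNF350, 0.98 for ZNF699, 0.977 for ZNF395 and 0.874 for ZNF800 on the log2 scale. It was -0.997 for ZNF593 and -0.722 for ZNF669.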

How the results depend on the processing

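The excess of falls over rises with estradiol, tamoxifen and the combination was found under every alternative run, leave-one-out fits included. Of 92 named results past the threshold, 32 lost it under at least 1 alternative. Among the alternatives run, the choice of probe set was the one that turned the direction of named results. With the mean of a gene's probe sets, the estradiol changes of ZNF638, ZNF652 and ZNF689 were 0.00589, 0.0581 and -0.0623, and the tamoxifen change of ZNF547 was 0.433. With the suffixes _x_at and _s_at left out, ZNF652 changed by 0.418, 0.417 and 0.434 with estradiol, tamoxifen and the combination. The count of members called with estradiol was 46 when only the arrays of both arms compared were fitted. Of all genes, 21.8% were called in that fit, against 29.7% in the main fit. The interaction count was 12 with no filter, where 6.57% of all genes were called, against 11.3% in the main fit. The cause was not tested. Without 1 array, counts ran from 52 to 78 for estradiol, 24 to 40 for tamoxifen, 30 to 53 for the combination, 8 to 34 for the interaction, 0 to 4 for the combination against estradiol, 0 to 3 for tamoxifen against estradiol, and stayed at 0 for the combination against tamoxifen. The share of all genes called ran from 22.4% to 32.0% for estradiol and 10.8% to 18.1% for tamoxifen in these fits. It ran from 12.4% to 21.5% for the combination and 6.75% to 16.4% for the interaction. Quantile normalization gave 13 rises and 60 falls with estradiol, 6 and 36 with tamoxifen, and 7 and 41 with the combination. Of all genes, 29.9%, 16.6% and 19.5% were called in that fit.

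The array numbers are not said to pair animals. With them as a replicate block, 12 members rose and 55 fell with estradiol, 7 and 26 with tamoxifen, and 7 and 30 with the combination, with 11 above and 2 below 0 for the interaction. Of all genes, 27.2%, 14.5% and 17.5% were called with that block, and 9.71% for the interaction. Same-numbered arrays correlated from -0.266 to 0.0947, 0 of 24 pairs were over 0.1, and 1 of 16 arrays correlated best with its own number. The block and the other alternatives left 0 members called between treated arms unless 1 array was left out. Low signal limits the 32 ZNF genes under the filter.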
